A study of Mus musculus with 18 samples.

Results

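The cytoplasmic actin genes Actb and Actg1 were examined for m5C sites in bisulfite-treated RNA. Their members are the sites that a library lists within an exon, on the same strand, of the mm10 RefSeq transcript of either gene. The rule found 144 distinct sites in Actb and 0 in Actg1, among 18059 distinct mRNA sites in 2607 genes with a site and 25890 distinct sites in all. The pair was selected on the number of sites of Actb in these libraries, so that number is a description and was not tested. RNA came from cultures labelled as cortical neurons of C57BL/6 mouse fetuses at day 18 of gestation. The control cells had no deprivation, and the other groups were kept in glucose-free DMEM under hypoxia for 1.5 h (OGD/R 1.5 h) or 3 h (OGD/R 3 h) and then returned to normal medium and air for 24 h (reoxygenation). The labels' gas shares for the hypoxic step sum to more than 100%, so the oxygen level cannot be read from them. Each group has 3 bisulfite libraries, and 9 mock libraries were not analysed here.

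Actb encodes beta-actin and Actg1 encodes gamma-actin, the nonmuscle actins that assemble into the filaments of the cell cortex and, in neurons, of growth cones and dendritic spines. Beta-actin mRNA is a classic example of a transported message. The beginning of its 3′UTR holds the zipcode, an element bound by IGF2BP1 that directs the mRNA to the cell periphery. m5C is a cytosine methylated at carbon 5, written on RNA by enzymes such as NSUN2, and bisulfite leaves it as cytosine while it converts unmethylated cytosine to uracil.

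A library lists a cytosine if its level reached 0.1 and its coverage 10, and gives it a call score of 0 to 1000. Coverage and level both raise the score, which therefore reveals neither, and read depth is unknown. A cytosine that is not listed may be unmethylated, too thinly covered or removed, and no upper limit can be set for it. The libraries listed 5423 to 7772 sites each. The coverage of the libraries of a group differed by less than the sampling noise where coverage could be checked, in control and OGD/R 3 h, so the 3 libraries of each group were counted as 1 sample. The differences between groups therefore have no replicate check, no p-value is given, and the SDs below describe libraries. None of the 15 neuronal marker genes carried a site in any library, whereas 15 of 15 intestinal epithelial marker genes did. A list of sites gives no expression, so the label of the cells could not be checked further.

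Actb carried most sites in OGD/R 3 h and fewest in OGD/R 1.5 h. The control libraries held 38, 33 and 30 Actb sites, the OGD/R 1.5 h libraries 21, 25 and 25, and the OGD/R 3 h libraries 82, 74 and 74. The 3 groups did not overlap. The means were 33.7 ± 4.04, 23.7 ± 2.31 and 76.7 ± 4.62 sites (SD, 3 libraries), a log2 ratio to control of -0.51 in OGD/R 1.5 h and of 1.19 in OGD/R 3 h. Such a separation from control was common. Of 2328 genes with a site in control or OGD/R 1.5 h, 15.1% had fewer sites in every OGD/R 1.5 h library than in every control library. Of 2267 genes with a site in control or OGD/R 3 h, 18.6% had more in every OGD/R 3 h library, and of 2189 genes with a site in either OGD/R group, 19.9% had more in every library of OGD/R 3 h than of OGD/R 1.5 h. The direction of the fall in OGD/R 1.5 h depended on neighbouring sites, since counting only sites with no other site within 10 nt gave a log2 ratio of 0.45. The rise in OGD/R 3 h was 0.86 by the same count.

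The group with most mRNA sites also held most Actb sites, while within groups the order could differ, as control replicate 2 had the most mRNA sites (4146) and 33 Actb sites, and control replicate 1 had 3886 and 38. Actb made up 0.978%, 0.796% and 0.789% of the mRNA sites of the control libraries, 0.599%, 0.703% and 0.667% in OGD/R 1.5 h, and 1.56% in each OGD/R 3 h library. The groups did not overlap on this scale either. The log2 ratio of OGD/R 3 h to control fell to 0.87 with it. By number of sites Actb had rank 1 of all genes in all 3 OGD/R 3 h libraries and in control replicate 1, and rank 3 to 5 in the others. Per 100 cytosines of the transcript it carried 27.9 sites, which was rank 4 of 192 genes with 20 or more sites, behind Cox4i1, Tmsb4x and Itm2b.

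**Figure D1:**
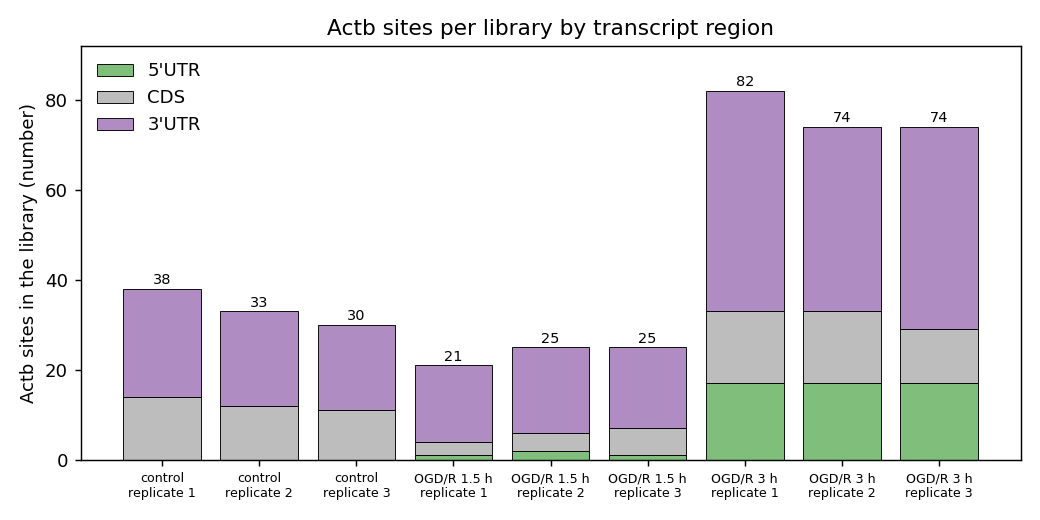
Number of Actb sites in each of the 9 libraries (vertical axis), divided into 5′UTR, coding sequence (CDS) and 3′UTR, with the total above each bar. The 3 OGD/R 3 h libraries hold 74 to 82 sites, 17 of them in the 5′UTR, where control holds 0.

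Markers of other cell types differed in whether they moved with Actb. The 15 intestinal epithelial marker genes carried 87 to 103 sites per library in control, 59 to 64 in OGD/R 1.5 h and 201 to 204 in OGD/R 3 h. Fcgbp, a mucus protein gene, took a large part, with 12, 13 and 10, then 12, 16 and 13, and then 72, 69 and 66, and without it the other 14 genes carried 77 to 90, 47 to 48 and 131 to 138. Of the 15 genes, 7 had more and 3 had fewer sites in every OGD/R 3 h library than in every control library. Over all genes with a site in these groups the shares were 18.6% and 18.7%. Among the 3 was Fabp1, with 4, 4 and 4 in control against 2, 1 and 2. In OGD/R 1.5 h 0 had more and 6 fewer than in control, against 8.55% and 15.1% of all genes. Between the OGD/R groups 11 had more in OGD/R 3 h and 0 fewer, against 19.9% and 13.4%. The adult beta-globin genes Hbb-bs and Hbb-bt, 2 of 5 erythroid markers, carried 31 sites in each OGD/R 3 h library and 0 elsewhere, while Hba-a1, Hba-a2 and Alas2 carried 0. Smooth muscle markers carried 11 to 18, 9 to 12 and 8 to 13 sites, on 6 of 7 genes, and so did not rise with Actb in OGD/R 3 h. In astrocyte and fibroblast lists 1 of 5 genes each had a site. Their part in the Actb result was not tested.

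Actb lies on the minus strand at chr5:142903115-142906754 (mm10) and its transcript of 1920 nt has 6 exons. Its 5′UTR has 109 nt with 45 cytosines, its coding sequence 1128 nt with 335 and its 3′UTR 683 nt with 136. Positions in the transcript are counted from 1 at its 5′ end, and genomic positions also from 1. Most mRNA sites of these libraries lay in the coding sequence, and most Actb sites in the 3′UTR. Pooled over the libraries of each group, the 3′UTR held 65.5% of 55 control sites, 80.9% of the 47 after OGD/R 1.5 h and 60.7% of the 107 after OGD/R 3 h. Over all mRNA sites these shares were 8.70%, 8.29% and 10.3%, and the coding sequence held 72.4%, 77.2% and 70.8%.

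**Figure D2:**
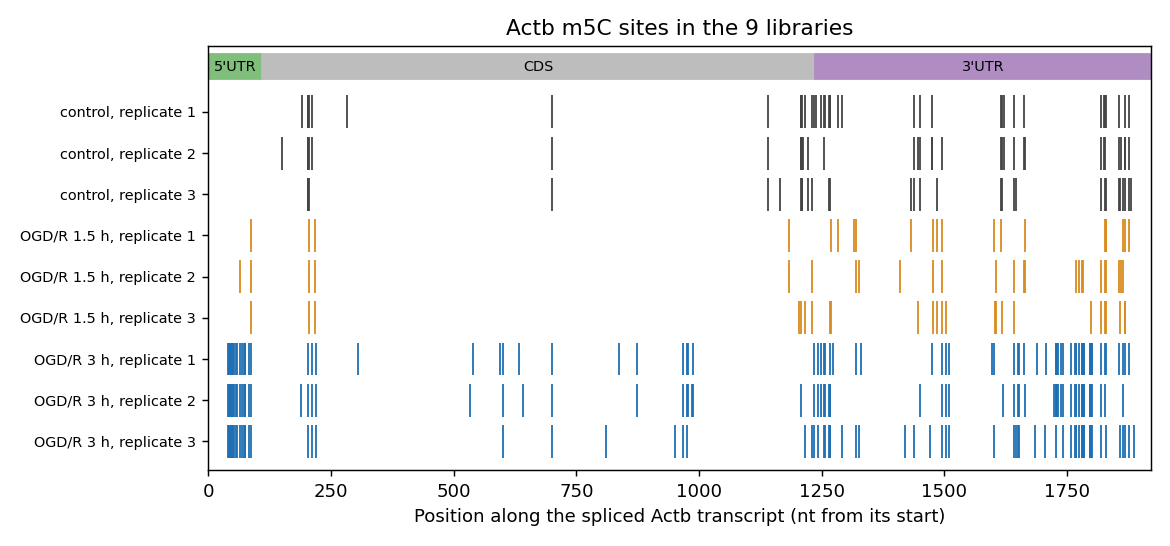
Actb sites (vertical lines) of each of the 9 libraries along the spliced transcript (horizontal axis, nt from its start), with its regions drawn above. All 3 OGD/R 3 h libraries have a dense block in the 5′UTR and another in the last part of the 3′UTR that the control libraries lack.

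The groups differed by region in different ways. In the 5′UTR no control library had a site, the OGD/R 1.5 h libraries had 1, 2 and 1, and every OGD/R 3 h library had 17. In the coding sequence the control libraries had 14, 12 and 11 sites, those of OGD/R 1.5 h had 3, 4 and 6, and those of OGD/R 3 h had 16, 16 and 12. OGD/R 1.5 h thus lay below both other groups, which overlapped. In the 3′UTR control had 24, 21 and 19, OGD/R 1.5 h had 17, 19 and 18, and OGD/R 3 h had 49, 41 and 45, so that OGD/R 3 h stood above the others. Of the cytosines of the 3′UTR, 26.5% carried a site in control, 27.9% in OGD/R 1.5 h and 47.8% in OGD/R 3 h. In the 5′UTR these shares were 0%, 4.44% and 37.8%, and in the coding sequence 5.67%, 2.09% and 7.46%.

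The 5′UTR sites of OGD/R 3 h formed a single run. A run is 3 or more sites of a library with gaps of at most 10 nt along the spliced transcript. It spanned 49 nt of exon 1 from position 40 to 88 (chr5:142906667-142906715), took in 17 of 20 cytosines, and consisted of the same 17 positions in each of the 3 libraries. The beginning of the run, chr5:142906691-142906715, is printed here on the transcript strand because it separates the groups most plainly, with cytosines called in any library of the group in capitals and all other bases in lower case.
Control: cgcgtccacccgcgagcacagcttc
OGD/R 1.5 h: cgcgtccacccgcgagcacagcttC
OGD/R 3 h: CgCgtCCaCCCgCgagCaCagcttC
OGD/R 3 h had 11 of 12 cytosines called here, OGD/R 1.5 h had 1 and control 0. Scores in the run were modest. They ran from 7 to 91 with a median of 26 in OGD/R 3 h replicate 1, from 7 to 162 with a median of 28 in replicate 2, and from 2 to 120 with a median of 16 in replicate 3. The last position of the run, chr5:142906667, was the single 5′UTR cytosine called in all libraries of both OGD/R groups, with scores of 14, 3 and 26 after 1.5 h and of 58, 24 and 107 after 3 h. These scores overlapped.

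A second block set OGD/R 3 h apart in the last part of the 3′UTR. From position 1701 to 1801, a window picked with these calls known, it had a site at 25 of 25 cytosines in at least 1 of its libraries. Its libraries had 23, 22 and 17 sites there. Control had 0 there. OGD/R 1.5 h had 0, 4 and 1, of which the highest score was 44. Within the block lay a run of 10 sites at 10 of 10 cytosines, which all 3 OGD/R 3 h libraries shared, from position 1759 to 1785 (chr5:142903250-142903276). It is printed because each of its cytosines was called, again with calls of the group in capitals.
Control: ctgaatggcccaggtctgaggcctccc
OGD/R 1.5 h: ctgaatggcCcaggtCtgaggCctCcc
OGD/R 3 h: CtgaatggCCCaggtCtgaggCCtCCC
The 4 calls of OGD/R 1.5 h came from replicate 2 alone and had scores of 0 to 44. In OGD/R 3 h the scores of the run reached 878, 846 and 870. All 3 maxima belonged to chr5:142903267, the second of the cytosines in the CCC triplet, with a score of 44 in OGD/R 1.5 h replicate 2 and no call in the other libraries. Neighbours in that triplet scored far less, from 61 to 209 at chr5:142903268 and from 61 to 118 at chr5:142903266.

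**Figure D3:**
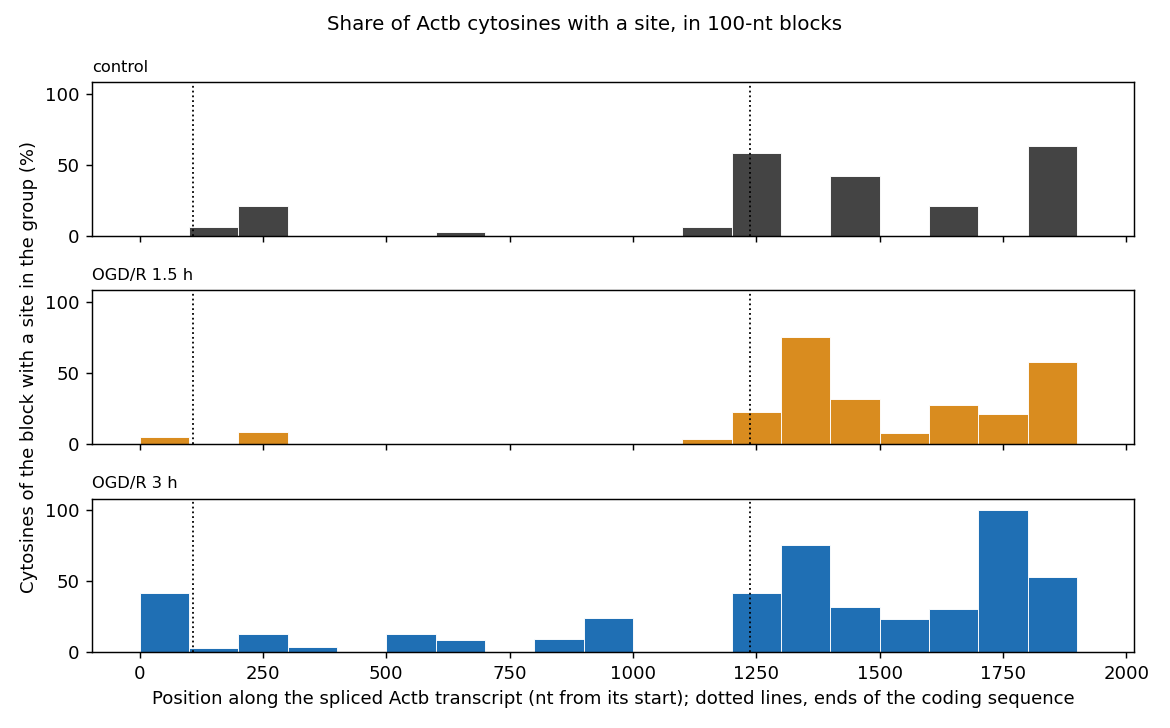
Share of the cytosines of each 100-nt block of the Actb transcript that carried a site in any library of the group (vertical axis, percent), with a panel for each group. The block from 1701 to 1800 is empty in control and reaches 20.8% after OGD/R 1.5 h and 100% after OGD/R 3 h. The block from 1301 to 1400 holds 4 cytosines only.

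Around the stop codon control and OGD/R 3 h carried sites at nearly the same number of positions, but with different scores. From position 1231 to 1267, which spans the end of the coding sequence and the first bases of the 3′UTR, both groups had a site at 9 of 10 cytosines, and OGD/R 1.5 h at 2. This window was set by the longest control run, so the control count of 9 follows from that choice. Control replicate 1 held that run, with 9 sites scored 1 to 39. Control replicates 2 and 3 had 1 and 3 sites, so the control count rested on replicate 1. OGD/R 3 h had 6, 8 and 8 sites with scores of 69 to 602, 66 to 544 and 68 to 337. The 3′UTR portion, chr5:142903767-142903792, is shown for its calls in all 3 groups.
Control: ctgttaCtgagCtgCgttttaCaCCc
OGD/R 1.5 h: ctgttactgagctgcgttttacacCC
OGD/R 3 h: CtgttaCtgagCtgCgttttaCaCCc
The first base of this stretch, chr5:142903792, was called in OGD/R 3 h only, with scores of 602, 544 and 337. At chr5:142903781 control replicates 1 and 2 scored 11 and 7, and the OGD/R 3 h libraries 213, 182 and 189. At chr5:142903778 control replicate 1 scored 4, and OGD/R 3 h scored 139, 105 and 174. At the last 2 positions no score of OGD/R 3 h was as low as one of control.

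In the body of the coding sequence calls were sparse. Between positions 301 and 1100, which hold 239 cytosines, the control libraries had a single site each, the OGD/R 1.5 h libraries had 0, and the OGD/R 3 h libraries had 12, 10 and 6 at 17 positions in all. The control site was chr5:142904555 in exon 4, with scores of 157, 442 and 346, and it recurred in OGD/R 3 h with 782, 329 and 94. The groups overlapped there. The highest score of all Actb sites, 1000, was that of chr5:142904184 in exon 5, which was called in OGD/R 3 h alone with 212, 1000 and 831 and lies in acgttgacatCcgtaaagacc. A score of 1000 is the cap of the files.

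Exon 2, which holds the start codon, carried a small cluster in which neighbouring cytosines were called in different groups. Over chr5:142905579-142905606 the calls were as follows, with the same meaning of capitals.
Control: CcgggctgtattcCCCtccatCgtgggc
OGD/R 1.5 h: ccgggctgtattcccCtccatcgtgggC
OGD/R 3 h: ccgggctgtattcCcctccatCgtgggc
In the cCCC of the stretch, the first cytosine was called in no library. The next, chr5:142905593, was called in all libraries of control, with scores of 4, 9 and 28, and of OGD/R 3 h, with 219, 91 and 103. After it, chr5:142905592 was called in control alone, with 41, 23 and 36. The last, chr5:142905591, was called in control with 5, 11 and 1 and in OGD/R 1.5 h with 11, 8 and 42. Further along, control and OGD/R 3 h shared chr5:142905585. It scored 11 and 5 in control replicates 1 and 2, and 134, 115 and 23 in the OGD/R 3 h libraries. The last base of the stretch was called in OGD/R 1.5 h alone, with 39, 3 and 16. Its first base was called in control replicate 1 alone, with 26. Just outside the stretch, chr5:142905576 was called in all OGD/R 3 h libraries and no other, with 86, 10 and 29. On the other side, chr5:142905608 was called in OGD/R 3 h replicate 2 alone, with 635. Whether reads that carry one of these calls also carry the others cannot be read from lists of sites.

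Most Actb sites recurred in few libraries. Of the 144 sites, 37 were called in 1 library, 28 in 2, 44 in 3 and 17 in 4, and none in all 9. The 3 sites called in 8 libraries all lay in the 3′UTR, at chr5:142903207, chr5:142903216 and chr5:142903394. In OGD/R 3 h 52 of 107 sites were called in each of its libraries, against 16 of 55 in control and 7 of 47 in OGD/R 1.5 h. Pairs of OGD/R 3 h libraries shared 57.4% to 67.7% of the Actb sites found in either, compared with 42.8% to 45.4% over all mRNA sites. For pairs of control libraries the shares were 40.0% to 47.9% and 39.97% to 40.9%, and for pairs of OGD/R 1.5 h libraries 27.8% to 28.2% and 29.8% to 30.6%. The range for Actb lay above that for all mRNA sites in OGD/R 3 h, overlapped it in control and lay below it in OGD/R 1.5 h, and these differences were not tested.

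Between groups the lists overlapped in part. All 3 groups had 15 sites in common, and 66 sites were found in OGD/R 3 h alone, 16 in control alone and 12 in OGD/R 1.5 h alone. Control and OGD/R 3 h shared 30 sites, which were 54.5% of the control sites and 28.0% of those of OGD/R 3 h. OGD/R 1.5 h shared 24 sites with control and 26 with OGD/R 3 h, which were 51.1% and 55.3% of its own sites, 43.6% of those of control and 24.3% of those of OGD/R 3 h. Over all mRNA sites 20.5% of the control sites were found in OGD/R 3 h and 16.9% of the OGD/R 3 h sites in control. With OGD/R 1.5 h, 26.3% of its mRNA sites were found in control and 21.4% in OGD/R 3 h, which were 27.2% of the control sites and 18.3% of those of OGD/R 3 h. Restricted to sites called in every library of a group, 4 of 16 control sites were among the 52 of OGD/R 3 h.

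Sites called in all libraries of a group and in none of the others numbered 33 for OGD/R 3 h and 2 for each of the other groups. These were 30.8% of the Actb sites of OGD/R 3 h, 3.64% of those of control and 4.26% of those of OGD/R 1.5 h. Over all mRNA sites the shares were 22.4%, 14.9% and 8.93%, so a high share in OGD/R 3 h was not confined to Actb. Of the 33, 15 lay in the 5′UTR, 4 in the coding sequence and 14 in the 3′UTR. Their highest mean scores were those of chr5:142904184 and chr5:142903792, given above, and of chr5:142903382 in cgtccatgccCtgagtccacc, with 530, 657 and 779. The 2 of control were chr5:142903895 in atcggtggctCcatcctggcc, with scores of 106, 75 and 69, and chr5:142905592 in the exon 2 cluster. The 2 of OGD/R 1.5 h were chr5:142903559 in caaacatcccCcaaagttcta, with 29, 12 and 56, and chr5:142905579, the last base of the exon 2 stretch.

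**Figure D4:**
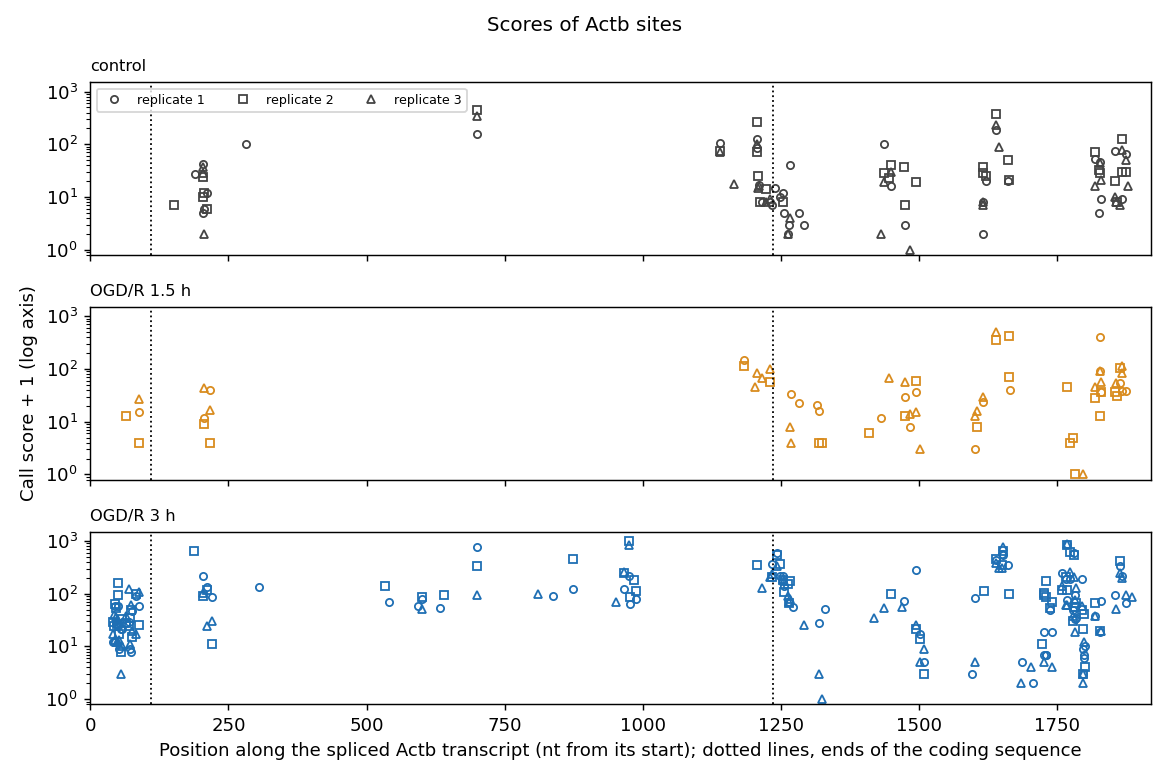
Call score plus 1 (vertical log axis) of every Actb site along the transcript (horizontal axis, nt from its start), with a panel for each group and a symbol for each replicate. The highest scores of OGD/R 3 h lie near positions 976 and 1768, and the 5′UTR run of that group stays at or below 162.

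Few sites could be compared by score. Control and OGD/R 3 h shared 4 sites that all 6 libraries called. At chr5:142903394 control scored 186, 372 and 233 and OGD/R 3 h 444, 464 and 378. At chr5:142905593 in the exon 2 cluster, the OGD/R 3 h scores given above also exceeded those of control. These 2 of 4 sites were higher in OGD/R 3 h, whereas over 250 mRNA sites called in all of these libraries 10.8% were higher and 15.6% lower. With 4 sites this share carries little weight. At the other two, chr5:142903216 with 51, 69 and 15 against 37, 66 and 36, and chr5:142904555, the groups overlapped. OGD/R 1.5 h overlapped with control at both sites they shared (chr5:142903207 and chr5:142905591), where 9.18% of 294 mRNA sites were higher and 13.6% lower in OGD/R 1.5 h. It also overlapped with OGD/R 3 h at the 2 sites they shared (chr5:142903539 and chr5:142906667), where 12.8% of 203 mRNA sites were higher and 15.3% lower in OGD/R 3 h.

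The median score of all Actb sites of a library was 12.5, 27 and 15 for the control libraries, 32, 12 and 44 after OGD/R 1.5 h, and 58, 92 and 52 after OGD/R 3 h. OGD/R 3 h lay above both other groups, which overlapped. The same medians over all mRNA sites were 9 to 10, 7 and 11 to 13, so that Actb sites scored higher than the median mRNA site in every library. The score takes in coverage, and the coverage of Actb in these libraries is unknown.

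Many Actb sites sat in runs. The share of Actb sites in a run was 63.2%, 66.7% and 50.0% in the control libraries, 28.6%, 40.0% and 36.0% in OGD/R 1.5 h, and 80.5%, 82.4% and 71.6% in OGD/R 3 h. The groups did not overlap. Over all mRNA sites, with gaps along the genome, the shares were 20.8% to 22.2%, 16.1% to 16.2% and 29.1% to 29.2%, in the same order of groups, and the difference from Actb was not tested. A run needs 3 or more nearby sites, so its share can rise with the number of sites alone. The number of Actb sites ranked the groups in the same way. It also set Actb apart from most genes, as control replicate 1 had 3886 mRNA sites in 1343 genes and 38 in Actb. The longest run of a library had 9, 5 and 6 sites without deprivation, 3, 4 and 3 after OGD/R 1.5 h and 17 in all 3 libraries of OGD/R 3 h.

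Over the whole transcript, the bases next to Actb sites were close to those of all its cytosines, but within the 3′UTR they differed. Of the 144 sites 13.2% were followed by G (CG), 23.6% were in CHG and 63.2% in CHH, where H is any base but G. For all 516 cytosines of Actb these shares were 13.6%, 21.1% and 65.3%. By group CHH made up 56.4% of the control sites, 66.0% of those of OGD/R 1.5 h and 60.7% of those of OGD/R 3 h. In the 3′UTR, where sites were densest, 66.7% of the 87 cytosines with a site were in CHH, against 87.8% of the 49 without, and G made up 18.4% and 8.97% of the 3 bases that followed. The predicted probability that a cytosine is paired, from the fold of the whole transcript, averaged 0.557 over cytosines with a site and 0.615 over those without. These are descriptions of a single transcript, in which neighbouring cytosines share their surroundings.

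Actg1 carried 0 sites in all 9 libraries. It lies on the minus strand at chr11:120345687-120348495 and has 6 exons, 1908 nt and 507 cytosines, nearly as many as Actb. The coding sequences of both genes have the same length and were 88.7% identical in an alignment, while the 5′UTRs were 48.6% and the 3′UTRs 45.0% identical. With each C read as T, the form that converted RNA takes, the coding sequences were 94.1% identical, with a longest identical stretch of 119 nt. Windows of 50 nt on either side of the coding Actb sites were then identical by a median of 95.05% and by up to 99.0%. Windows near an end of the coding sequence were cut there, so they leave out the less similar UTRs. Of the 40 coding positions with a site in Actb, 34 are a cytosine in Actg1 as well, or 85.0%, the same as the 85.1% of the Actb coding cytosines without a site. None of them was called in Actg1. Of the 22 such positions called in at least 2 libraries of a group, 18 are a cytosine in Actg1.

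Copies in the genome differ between the 2 genes. At 95% identity or more over at least 100 nt, Actb had 0 further loci and Actg1 had 7, of which 5 covered at least 80% of its length. With either strand counted, 1 listed site lay within the 7 loci of Actg1. A copy at that identity existed for all 36 cytosines of the Actg1 5′UTR, all 321 of its coding sequence and 149 of the 150 of its 3′UTR. For Actb it existed for none. With each C read as T, as in converted RNA, Actb had 1 such locus and Actg1 had 9. The Actb locus covered 46 of 335 coding cytosines, 13 of the 40 with a site and 33 of the 295 without. It also covered 2 of the 136 cytosines of the 3′UTR, and these 2 had a site. The genes Actb and Actg1 themselves were left out of all these counts of loci. Identity was taken over each whole alignment, and no converted alignment of Actb with Actg1 reached 95%. Windows around many coding Actb sites did reach it, as given above, and are not in these counts. How the aligner placed reads that match several loci is not given in the sources used here. The part of these copies in the absence of Actg1 sites, or in the sites of Actb, was not tested.

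The other actin genes carried few sites. Acta2, the smooth muscle alpha-actin, had 4, 3 and 3 sites in control, 1 in each OGD/R 1.5 h library and 3, 2 and 2 in OGD/R 3 h. Actg2, the enteric smooth muscle gamma-actin, had 1 site, in OGD/R 3 h replicate 3. Skeletal Acta1 and cardiac Actc1 had 0.

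Of 39 genes for actin-binding proteins and regulators of actin assembly, 26 had a site in some library, with 22 in control and 19 in each OGD/R group. Pfn1, whose product profilin delivers actin monomers to growing filament ends, carried most distinct sites, 69, with 16, 22 and 18 in the control libraries, 12, 11 and 15 after OGD/R 1.5 h and 25, 22 and 30 after OGD/R 3 h. Tmsb4x, which encodes the monomer-sequestering peptide thymosin beta 4, had 3, 1 and 1 in the control libraries, 1, 1 and 4 after OGD/R 1.5 h and 39, 39 and 38 after OGD/R 3 h. Tmsb4x thus had few sites until OGD/R 3 h, where it stood far above both other groups. Actn4, the filament crosslinker alpha-actinin 4, had 8, 7 and 6, then 2, 5 and 7, and then 11, 10 and 8. Its control and OGD/R 3 h libraries overlapped. Of the regulators with a site in the groups compared, 4 of 25 had more and 5 of 25 fewer sites in every OGD/R 3 h library than in every control library, where the shares over all genes were 18.6% more and 18.7% fewer. In OGD/R 1.5 h 1 of 26 had more and 5 of 26 fewer than in control, against 8.55% and 15.1% of all genes. Between the OGD/R groups 7 of 25 had more in OGD/R 3 h and 2 of 25 fewer, against 19.9% and 13.4%. The regulators as a list were therefore near the background, and the rise of Actb in OGD/R 3 h was not shared by most of them.

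**Figure D5:**
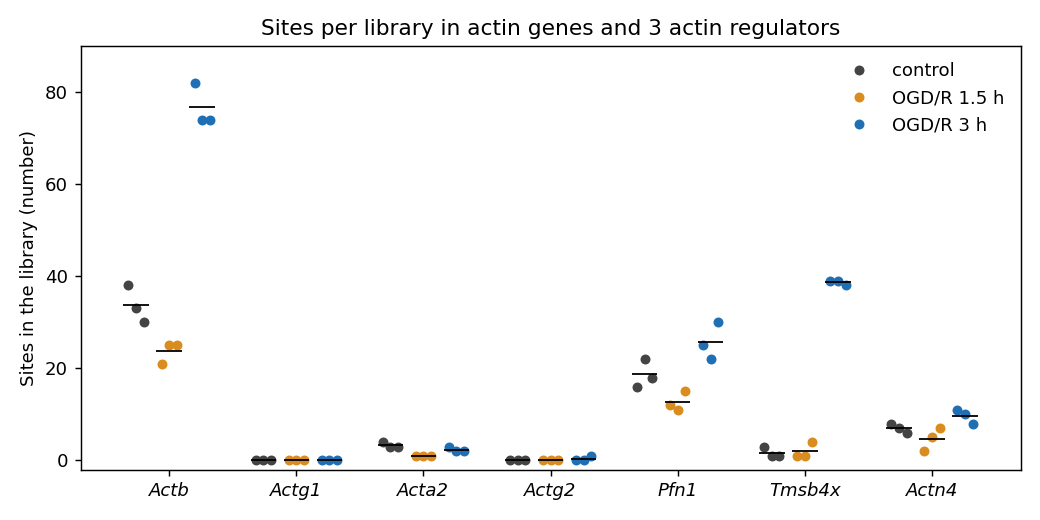
Number of sites in each library (points, vertical axis) and the mean of 3 libraries (horizontal lines) for Actb, Actg1, Acta2, Actg2 and the 3 actin regulators with most distinct sites, by group. Actb stands at 74 to 82 and Tmsb4x at 38 to 39 in OGD/R 3 h, and Actg1 is at 0 in all 9 libraries.

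Among 191 other genes with 20 or more distinct sites, the number of sites per library followed that of Actb most closely over the 9 libraries in Ptprf (Pearson's r = 0.988), Selenop (0.983), Apob (0.981), Tmsb4x (0.976) and Muc2 (0.975). Ptprf encodes a receptor tyrosine phosphatase, Selenop a secreted selenium carrier, Apob the apolipoprotein of chylomicrons and Muc2 the main mucin of the gut. In Ptprf the control libraries had 4, 3 and 3 sites, those of OGD/R 1.5 h had 1, 3 and 2 and those of OGD/R 3 h had 9, 8 and 9. A pattern like that of Actb was not rare, since 36 of the 191 genes reached an r of 0.9, and the number of Actb sites followed the number of mRNA sites of the library with an r of 0.969. The 9 points form 3 groups and share the library totals, so these values describe likeness only. No gene could be matched to Actg1, which does not vary.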

How the data were processed

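RNA from 9 bisulfite libraries was depleted of rRNA, converted and sequenced as stranded total RNA. The authors trimmed reads with Cutadapt (1.9.3 in the submitters' notes), used meRanGh for alignment to mm10 and meRanCall for calling, library by library, and kept cytosines whose level reached 0.1 and coverage 10. The deposited lists give a position, strand and score, which is 10 times the caller's score, cut to its whole part and capped at 1000, without normalization for depth.

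Sites were assigned with Python 3.11.15 to exons of curated RefSeq transcripts of 21013 protein-coding genes (GRCm38.p6, the sequence of mm10). All 25890 fell on a cytosine. A group's list is the union of its 3 libraries. Pairing was predicted with ViennaRNA 2.7.2, and copies were sought with BLAST 2.17.0. The check of replicates used coverage in a part of the study's supplement and was tested on simulated data.

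Members, gene lists and tests were chosen with earlier results of these data known. Sites named are those in 8 libraries (none was in 9), those of 1 group alone with the 3 highest mean scores, the longest runs and the highest scores. The 4 stretches printed, and sites named around the stop codon and beside the 3′UTR maximum, were picked after their values were seen. Genes named are the 6 actins, the 3 of 39 regulators with most sites and the 5 most like Actb. The alternatives were a score of at least 10, isolated sites, sites in at least 2 or all 3 libraries, share of mRNA sites, other gaps, the mean and each library left out.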

Additional observations from a re-analysis of the deposited data

How the results depend on the processing

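The direction of the Actb numbers held under every alternative but 1. OGD/R 1.5 h against control moved from a log2 ratio of -0.51 to -0.24 with a score of at least 10 and to -0.82 with sites in at least 2 libraries, and it reversed to 0.45 with isolated sites (no other site within 10 nt). OGD/R 3 h against control moved from 1.19 to 1.61 with a score of at least 10, 0.86 with isolated sites and 0.87 as a share of mRNA sites. OGD/R 3 h against OGD/R 1.5 h moved from 1.70 to 0.42 with isolated sites, 1.25 as a share and 2.06 with sites in at least 2 libraries. The cause was not tested. Leaving out each library gave -0.58 to -0.41, 1.11 to 1.28 and 1.62 to 1.74. Actg1 stayed at 0 under all alternatives, so its overlap, regions and runs gave no value.

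With sites in at least 2 or in all 3 libraries, fewer sites entered and shared ones fell to 20% and 12.5% of control in OGD/R 1.5 h, 36.7% and 25.0% of control in OGD/R 3 h, 35.3% and 28.6% of OGD/R 1.5 h in control, 15.5% and 7.69% of OGD/R 3 h in control, and 12.7% and 3.85% of OGD/R 3 h in OGD/R 1.5 h. Sites of OGD/R 1.5 h in OGD/R 3 h fell to 28.6% with all 3. Without each library these shares ran, in the same order, from 30.9% to 48.9%, 43.6% to 56.2%, 40.4% to 58.3%, 22.4% to 28.7%, 16.8% to 26.6% and 46.8% to 61.5%.

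With sites in at least 2 libraries the coding share became 40.0% in control, 23.5% after 1.5 h and 15.5% after 3 h, the 3′UTR share 60.0% in control and 70.6% after 1.5 h, and the 5′UTR share of OGD/R 3 h 23.9%. A score of at least 10 gave 36.8% coding and 63.2% 3′UTR in control, 76.3% 3′UTR in OGD/R 1.5 h, and 17.3% 5′UTR and 57.1% 3′UTR in OGD/R 3 h. Without each library the coding share was 33.3% to 37.5%, 11.1% to 19.4% and 20.4% to 22.6%, the 3′UTR share 62.5% to 66.7%, 76.9% to 83.3% and 59.1% to 62.2%, and the 5′UTR share 2.78% to 5.56% in OGD/R 1.5 h and 17.3% to 18.3% in OGD/R 3 h.

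The mean share in runs moved from 59.9%, 34.9% and 78.2% to 35.2%, 8.76% and 48.8% with gaps of at most 5 nt and to 73.7%, 50.3% and 85.3% with at most 20 nt, and without each library it was 56.6% to 64.9%, 32.3% to 38.0% and 76.1% to 81.5%. The CHH share became 70.0% in control and 59.2% in OGD/R 3 h with sites in at least 2 libraries, and 37.5%, 70.0% and 58.3% with isolated sites. Without each library it was 56.2% to 61.7%, 63.9% to 66.7% and 59.6% to 61.2%. The median log2 ratio of scores at recurrent sites, 2.00 for OGD/R 1.5 h against control, 0.53 for OGD/R 3 h against control and 1.86 between the OGD/R groups, was 0.55 to 2.46, 0.32 to 2.06 and 0.76 to 2.08 without each library. It fell to 0.55 without OGD/R 1.5 h replicate 1, rose to 2.06 without control replicate 3 and fell to 0.76 without OGD/R 3 h replicate 1. Few sites enter, and leaving out a library also lets in sites that only the remaining libraries called. Coding sites with a cytosine in Actg1 went from 34 to 18. No paired analysis was possible because the results come from no test and the libraries of a group were counted as 1 sample. Depth is unknown and limits all values, since a cytosine without a call may lack coverage.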
